A study of Homo sapiens with 6 samples.

Results

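The urokinase system, its serpin inhibitors and the tissue factor pathway were followed through 9 genes. These were PLAU, PLAUR, PLAT, SERPINE2, SERPINB2, F3, TFPI, TFPI2 and THBD, found by gene symbol among 58825 genes in the expression table. The 9 genes and the gene lists below were chosen with earlier results of these data known. Their counts beside those of all genes are therefore descriptions only. Messenger RNA was sequenced from T24 cells, an established human bladder carcinoma line, carrying a hairpin against DLGAP5 (shDLGAP5-1, 3 libraries) or a control hairpin (shNC-1, 3 libraries, labelled wild type). DLGAP5 encodes a protein of the mitotic spindle, and the study asks what it does in bladder cancer. All cells were grown in the same medium with serum, and the labels name neither separate cultures nor separate days, so the p-values reflect spread among these libraries alone, which may be technical. Only 1 hairpin against DLGAP5 was measured, so effects of its sequence and effects of DLGAP5 loss cannot be told apart.

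Urokinase, the product of PLAU, and tissue-type plasminogen activator, the product of PLAT, cut plasminogen into plasmin, a protease that dissolves fibrin and breaks down matrix. PLAUR encodes the receptor that holds urokinase at the cell surface, and the serpins are decoy substrates that trap these proteases. Tissue factor, encoded by F3, is the membrane receptor of factor VII and starts clotting; TFPI blocks it with Kunitz domains, TFPI2 encodes a related Kunitz inhibitor of plasmin and other proteases, and THBD encodes thrombomodulin, which turns thrombin into an activator of protein C. Carcinoma cells often make urokinase, its receptor and tissue factor, genes known for their place in invasion and in clotting around tumours.

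DLGAP5 itself stood at 5.03, 4.0 and 7.51 FPKM in shDLGAP5-1 libraries against 32.98, 32.7 and 29.7 FPKM in shNC-1 libraries (FPKM, fragments scaled to transcript length and library total), which checks the labels. Estimated depth was 13700000 to 18300000 fragments in shDLGAP5-1 libraries and 21600000 to 27500000 in shNC-1 libraries. Of 11 markers listed for this line, KRT7, KRT8, KRT18 and VIM were at 237 FPKM or more in every library. GATA3 and the urothelial differentiation genes UPK1B and UPK2 stayed under 1 FPKM throughout, and EPCAM was at 0.765 to 1.18 FPKM. KRT19 was at 10.6 to 11.1 FPKM in shDLGAP5-1 libraries and at 17.7 to 20.9 FPKM in shNC-1 libraries. It fell by 0.76 on the log2 scale (limma adjusted p = 0.00438), the only 1 of the 6 markers tested to pass. UPK3A was at 2.28 FPKM in shDLGAP5-1 replicate 3 and listed at 0 in the other libraries, and KRT5 was listed at 0 in the shDLGAP5-1 libraries against 0.373, 3.95 and 0.0260 FPKM in shNC-1 libraries. 1 library stood apart: 14 of 16 myeloid blood cell markers had their highest value in shDLGAP5-1 replicate 3. Their summed level was 24.3, 10.2 and 824 FPKM in shDLGAP5-1 replicates 1 to 3 against 18.7, 12.8 and 37.4 FPKM in shNC-1 replicates 1 to 3, most of the 824 FPKM being lysozyme (LYZ, 686 FPKM). CD14 was not raised in that library, with 0.536, 0.468 and 0.482 FPKM in shDLGAP5-1 replicates 1 to 3 and 0.232, 0.128 and 0.132 FPKM in shNC-1 replicates 1 to 3. FCGR3A was listed at 0 in all libraries. Endothelial markers summed to 1.86, 2.46 and 10.9 FPKM in shDLGAP5-1 libraries and to 2.19 to 2.81 FPKM in shNC-1 libraries, with EMCN at 0 in all and PECAM1, which blood cells also carry, at 8.45 FPKM in shDLGAP5-1 replicate 3. Fibroblast markers summed to 3.00 to 3.16 FPKM in shDLGAP5-1 libraries and to 1.45 to 6.90 FPKM in shNC-1 libraries, with FAP at 0 in all. In these bulk samples fewer cells of a type and less RNA per cell cannot be told apart.

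In shDLGAP5-1 cells PLAUR, F3 and THBD fell and TFPI rose, while PLAU, the most abundant of the genes, did not pass the test. All 9 genes passed the filter on low values. Of these, 4 were called, 1 higher and 3 lower, by limma on log2(FPKM + 1) with Benjamini-Hochberg adjusted p under 0.05 over all 12714 genes tested, and their median log2 fold change was −0.47 against 0.03 for all genes tested. Across all genes tested 24.8% were called, 15.3% higher and 9.52% lower. In 6 of the 9 genes the groups shared no range, 1 lying higher and 5 lower in shDLGAP5-1. Of all genes tested 43.9% did not overlap, a share that was not split by direction. As the 9 genes were not chosen blind to these data, the shares describe them and test nothing. The calls of PLAUR, F3 and TFPI held without any single library. Without shDLGAP5-1 replicate 3, the library with myeloid transcripts, 5 genes were called, SERPINB2 joining the 4.

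**Figure D1:**
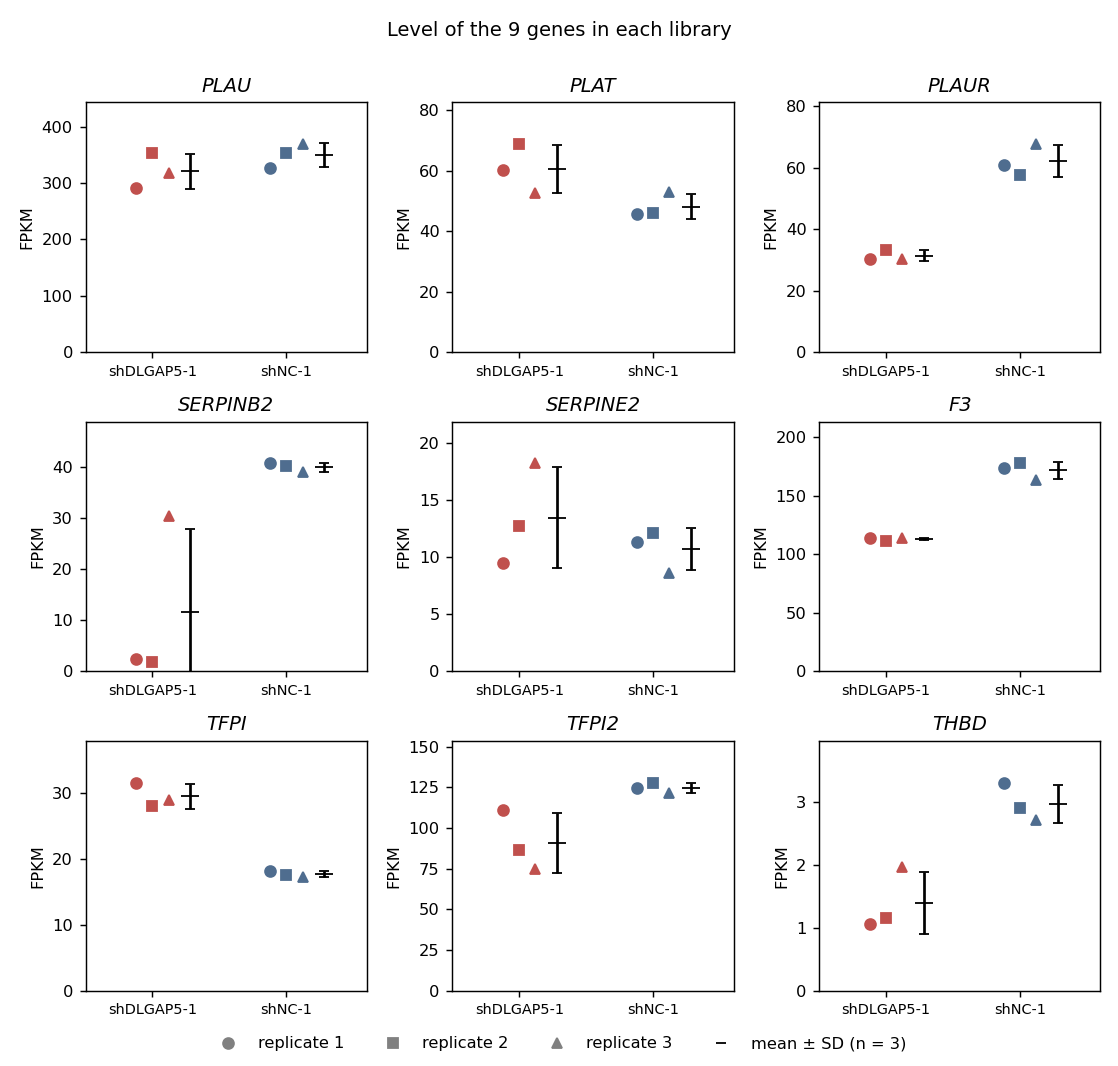
FPKM of the 9 genes in each library, shDLGAP5-1 left and shNC-1 right; symbols mark replicates 1 to 3 and bars the mean ± SD (n = 3). PLAUR and F3 were lower and TFPI higher in every shDLGAP5-1 library, and SERPINB2 in shDLGAP5-1 replicate 3 stood at 30.5 FPKM against 2.35 and 1.87 FPKM in replicates 1 and 2 (its SD bar is cut off at 0).

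The stretches before the transcription start of 4 of the genes are shown because each holds the letters TGANTCA, the core of AP-1 binding sites. Of these 4, F3 and PLAUR fell, and SERPINB2 and TFPI2 did not pass the test. They are RefSeq sequences of build GRCh38.p14, written 5′ to 3′ on the gene's strand, with matches to TGANTCA (N is any base, and the motif reads alike on both strands) or to GGNNTTTCC, the core of NF-kB sites, in capitals.
F3, chr1:94541801-94542009, minus strand: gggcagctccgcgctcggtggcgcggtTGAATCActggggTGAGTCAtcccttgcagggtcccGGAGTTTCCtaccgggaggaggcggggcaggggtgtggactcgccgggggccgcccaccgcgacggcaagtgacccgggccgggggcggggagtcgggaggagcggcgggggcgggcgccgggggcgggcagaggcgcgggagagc
SERPINB2, chr18:63887455-63887699, plus strand: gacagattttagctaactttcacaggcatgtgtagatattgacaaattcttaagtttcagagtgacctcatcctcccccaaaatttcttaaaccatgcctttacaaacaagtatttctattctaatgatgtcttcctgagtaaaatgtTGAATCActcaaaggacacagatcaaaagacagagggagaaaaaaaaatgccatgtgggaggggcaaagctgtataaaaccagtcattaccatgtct
PLAUR, chr19:43670338-43670367, minus strand: atcacaactccaTGAGTCAgggccgagcca
TFPI2, chr7:93890823-93890852, minus strand: agtccccgtgcaTGAATCAgccacccctca
In F3 the letters began 223 and 210 bases before the start, followed by GGNNTTTCC at 187 bases. Starts are those of RefSeq: for F3 and TFPI2 they are the same as in the expression table, and for the other genes with a window they lie inside the span the table gives, so the stretches of PLAUR and SERPINB2 are within those spans. The letters began 186 bases before the start of PLAUR, 102 before that of SERPINB2 and 87 before that of TFPI2. In PLAUR and TFPI2 they lie inside an exon that the GENCODE annotation gives the gene, so only 30 bases round them are shown. In F3 and SERPINB2 they lie outside such exons. Windows of 250 bases before the start were found for 7 of the 9 genes (F3, TFPI, SERPINE2, TFPI2, PLAU, SERPINB2 and PLAUR), and the windows of TFPI, PLAU and SERPINE2 held neither motif on either strand. Among 35116 such windows of all genes, 6.57% held TGANTCA and 5.48% held GGNNTTTCC. With the stricter letters TGACTCA or TGAGTCA, found in 4.2% of all windows, 2 genes remained, F3 and PLAUR. A match describes these letters only, and binding was not measured.

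PLAUR, the urokinase receptor, fell with the smallest p of the 9 genes. It stood at 30.3, 33.4 and 30.2 FPKM in shDLGAP5-1 replicates 1 to 3 against 60.9, 57.7 and 67.7 FPKM in shNC-1 replicates 1 to 3. The groups did not overlap, and the highest shDLGAP5-1 library lay far under the lowest shNC-1 library. The means were 31.3 ± 1.79 and 62.1 ± 5.13 FPKM (SD, n = 3 each), and the difference was −0.96 on the log2 scale (standard error 0.11; adjusted p = 0.00175, limma). The gene (ENSG00000011422) occupies 43646095 to 43670547 of chromosome 19, minus strand.

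PLAU, which encodes urokinase itself, was the most abundant of the 9 genes in both groups. Its level was 291, 353 and 319 FPKM in shDLGAP5-1 libraries against 327, 353 and 369 FPKM in shNC-1 libraries. The groups overlapped. The means were 321 ± 31.0 and 350 ± 21.3 FPKM (SD, n = 3 each), and the log2 fold change of −0.12 had a 95% interval from −0.40 to 0.15 (limma adjusted p = 0.477). PLAU (ENSG00000122861; chromosome 10, plus strand, 73909177 to 73917496) overlaps C10orf55 on the opposite strand, which was low, 2.74 ± 0.0553 FPKM in shDLGAP5-1 and 1.43 ± 0.0444 FPKM in shNC-1 (SD, n = 3 each), and rose by 0.62 on the log2 scale (limma adjusted p = 0.00737). Whether the counting used strand is not given in the sources used here, so reads of the 2 genes may not be told apart. Compared within each library, which removes any difference in library scaling, PLAU exceeded PLAUR 9.61, 10.6 and 10.5 times in shDLGAP5-1 libraries and 5.36, 6.12 and 5.45 times in shNC-1 libraries. PLAU made up 44.8%, 50.7% and 47.6% of the summed FPKM of the 9 genes in shDLGAP5-1 libraries and 40.6%, 42.3% and 43.8% in shNC-1 libraries, while that sum was 651 to 697 FPKM in shDLGAP5-1 and 805 to 842 FPKM in shNC-1.

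PLAT, the tissue-type activator, was at 60.1, 68.8 and 52.7 FPKM in shDLGAP5-1 libraries and at 45.5, 46.0 and 52.8 FPKM in shNC-1 libraries. The lowest shDLGAP5-1 library lay just under the highest shNC-1 library, so the groups overlapped. The log2 fold change of 0.32 (95% interval 0.02 to 0.62) did not pass (limma adjusted p = 0.113). PLAU exceeded PLAT 4.85, 5.13 and 6.05 times in shDLGAP5-1 libraries and 7.18, 7.67 and 6.99 times in shNC-1 libraries, without overlap. In the order of mean levels PLAT stood before PLAUR in shDLGAP5-1 (60.5 ± 8.07 against 31.3 ± 1.79 FPKM) and after it in shNC-1 (48.1 ± 4.08 against 62.1 ± 5.13 FPKM; SD, n = 3 each). PLAT (ENSG00000104368) lies on chromosome 8 from 42175233 to 42207724, minus strand. The substrate gene PLG was listed at 0 in all 6 libraries.

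**Figure D2:**
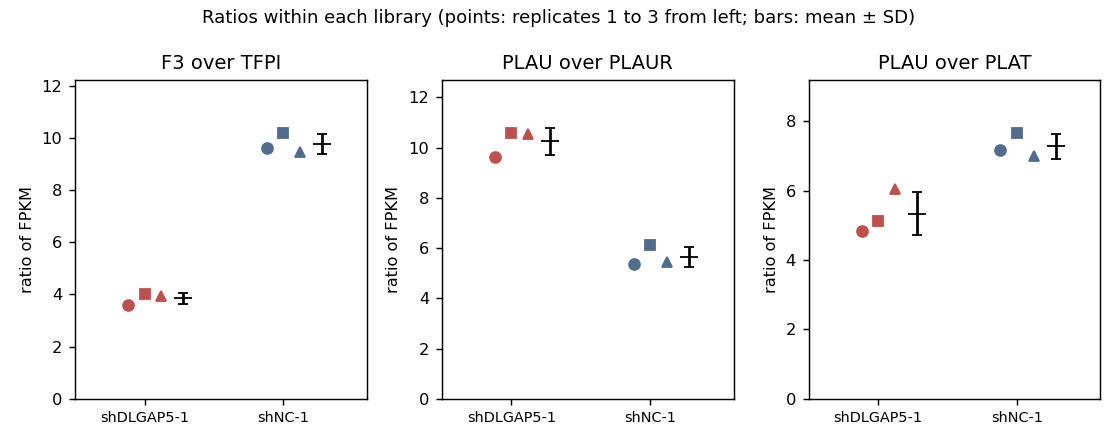
Ratios of FPKM within each library for F3 over TFPI, PLAU over PLAUR and PLAU over PLAT, shDLGAP5-1 left and shNC-1 right; points are replicates 1 to 3 from the left and bars the mean ± SD (n = 3). F3 over TFPI averaged 3.85 in shDLGAP5-1 and 9.75 in shNC-1, and in no panel did the groups overlap.

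Tissue factor fell and its inhibitor rose. F3 stood at 114, 112 and 114 FPKM in shDLGAP5-1 libraries and at 174, 178 and 164 FPKM in shNC-1 libraries, and the shDLGAP5-1 libraries were nearly equal. The means were 113 ± 1.08 and 172 ± 7.43 FPKM (SD, n = 3 each), which is a difference of −0.60 on the log2 scale (standard error 0.09; adjusted p = 0.00580, limma). TFPI was at 31.5, 27.9 and 28.8 FPKM in shDLGAP5-1 libraries and at 18.1, 17.5 and 17.3 FPKM in shNC-1 libraries. Every shDLGAP5-1 library lay above every shNC-1 library, with means of 29.4 ± 1.85 and 17.6 ± 0.455 FPKM (SD, n = 3 each) and a difference of 0.71 on the log2 scale (standard error 0.10; adjusted p = 0.00389, limma). Within a library F3 exceeded TFPI 3.61, 4.0 and 3.94 times in shDLGAP5-1 and 9.60, 10.2 and 9.47 times in shNC-1, a mean of 3.85 ± 0.211 against 9.75 ± 0.382 (SD, n = 3 each). F3 (ENSG00000117525) lies on chromosome 1 from 94529173 to 94541759 and TFPI (ENSG00000003436) on chromosome 2 from 187464230 to 187565760, both on the minus strand. TFPI overlaps AC007319.1 on the opposite strand, which did not exceed 0.0622 FPKM. F7, whose protein is the ligand of tissue factor, was listed at 0 in all 6 libraries.

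TFPI2, the related Kunitz inhibitor, was the third most abundant of the genes in both groups. It stood at 111, 86.4 and 74.8 FPKM in shDLGAP5-1 replicates 1 to 3 against 124, 128 and 121 FPKM in shNC-1 replicates 1 to 3. All shDLGAP5-1 libraries lay under all shNC-1 libraries, with a wider spread among them. The log2 fold change of −0.47 (95% interval −0.83 to −0.12) missed the threshold (limma adjusted p = 0.0598). The call depended on the scaling and on 1 library: the adjusted p was 0.0180 with equal column totals, 0.0425 under median-ratio scaling and 0.0135 without shDLGAP5-1 replicate 1. TFPI2 (ENSG00000105825; chromosome 7, minus strand, 93885396 to 93890753) lies within GNGT1 on the opposite strand, which was at 0.473 to 0.720 FPKM in shDLGAP5-1 libraries and at 0.0970 to 0.350 FPKM in shNC-1 libraries.

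THBD, which encodes thrombomodulin, was the least abundant of the genes and fell. Its level was 1.06, 1.16 and 1.97 FPKM in shDLGAP5-1 libraries against 3.31, 2.90 and 2.72 FPKM in shNC-1 libraries, without overlap. As THBD has a single exon of 4109 bases, these levels correspond to about 60, 66 and 148 fragments in shDLGAP5-1 libraries and 294, 329 and 272 fragments in shNC-1 libraries, at the estimated depths. The means were 1.40 ± 0.498 and 2.98 ± 0.302 FPKM (SD, n = 3 each), and their difference on the log2 scale −0.75 (standard error 0.17; adjusted p = 0.0193, limma), a value that the added 1 FPKM makes smaller: it was −1.08 with a pseudocount of 0.1. THBD no longer passed without shDLGAP5-1 replicate 2 (adjusted p = 0.0631), shNC-1 replicate 1 (0.0721) or shNC-1 replicate 2 (0.0657). Without shDLGAP5-1 replicate 3, whose THBD was the highest of its group, the log2 fold change was −0.91 (adjusted p = 0.00701). THBD (ENSG00000178726) lies on chromosome 20 from 23045633 to 23049741, minus strand.

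**Figure D3:**
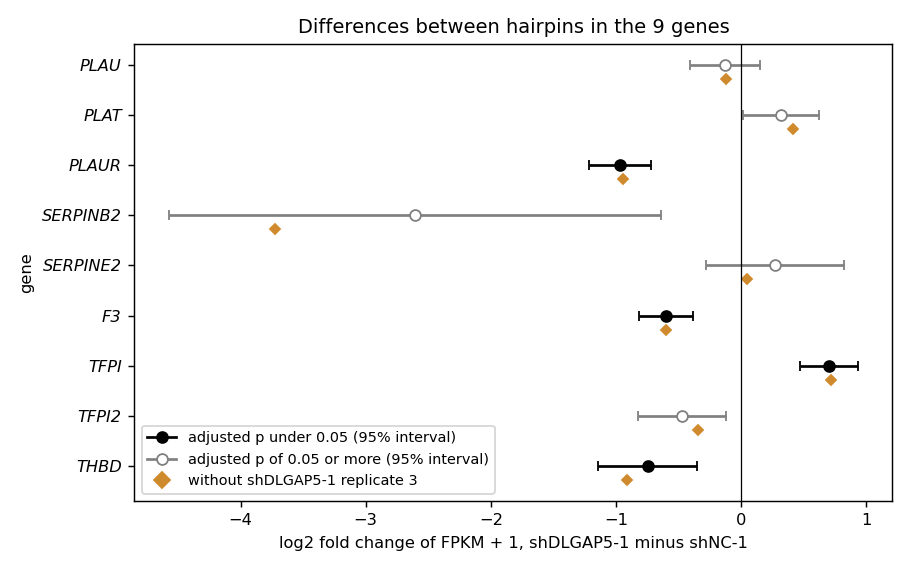
Log2 fold change of FPKM + 1, shDLGAP5-1 minus shNC-1, with 95% intervals from limma; filled circles passed the adjusted p of 0.05 and diamonds give the estimate without shDLGAP5-1 replicate 3. PLAUR, F3 and THBD lay below 0 and TFPI above it, and SERPINB2 had −3.72 without that library against −2.61 with it.

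SERPINB2, a serpin that inhibits urokinase and is also made by monocytes, had the largest estimate of the 9 genes and did not pass. It stood at 2.35, 1.87 and 30.5 FPKM in shDLGAP5-1 replicates 1 to 3 against 40.7, 40.1 and 39.0 FPKM in shNC-1 replicates 1 to 3. Replicate 3 of shDLGAP5-1 was close to the shNC-1 libraries and far above the other two of its own group. The log2 fold change was −2.61 with a 95% interval from −4.57 to −0.64 (limma adjusted p = 0.0601). Without shDLGAP5-1 replicate 3 it was −3.72 (adjusted p = 0.000401), without shDLGAP5-1 replicate 1 −2.11 (0.155) and without shDLGAP5-1 replicate 2 −1.99 (0.160), and with median-ratio scaling the adjusted p was 0.0477. The myeloid markers, at 824 FPKM in sum, were high in the same library, and their part in its SERPINB2 level was not tested. DLGAP5, at 7.51 FPKM, was also highest there within its group.

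SERPINB2 (ENSG00000197632; chromosome 18, plus strand, 63871692 to 63903888) belongs to a cluster of 10 SERPINB genes that spans 543 kb, from 63476958 to 64019779, and overlaps SERPINB10, which was at 0.0951, 0 and 4.72 FPKM in shDLGAP5-1 libraries and at 0.0552, 0.00953 and 0.177 FPKM in shNC-1 libraries. Of the 10, 4 were tested. SERPINB7, a relative with roles in kidney and skin, was at 1.12, 0.725 and 1.26 FPKM in shDLGAP5-1 libraries and at 5.15, 4.70 and 4.73 FPKM in shNC-1 libraries, and fell (log2 fold change −1.53, limma adjusted p = 0.00103). SERPINB8, an inhibitor of furin-like proteases, was at 6.45, 6.81 and 17.7 FPKM in shDLGAP5-1 libraries and at 23.9, 24.1 and 23.6 FPKM in shNC-1 libraries, so shDLGAP5-1 replicate 3 was again the nearest to shNC-1. Its log2 fold change was −1.27 (adjusted p = 0.0326). The adjusted p was 0.00120 without that replicate, and the call was lost in each other fit without 1 library (0.0812 to 0.0962). With no filter it was lost as well (limma adjusted p = 0.110). SERPINB5, maspin, at the other end of the cluster, stood at 7.54 ± 0.811 FPKM in shDLGAP5-1 and 8.13 ± 0.717 FPKM in shNC-1 (SD, n = 3 each; adjusted p = 0.601).

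**Figure D4:**
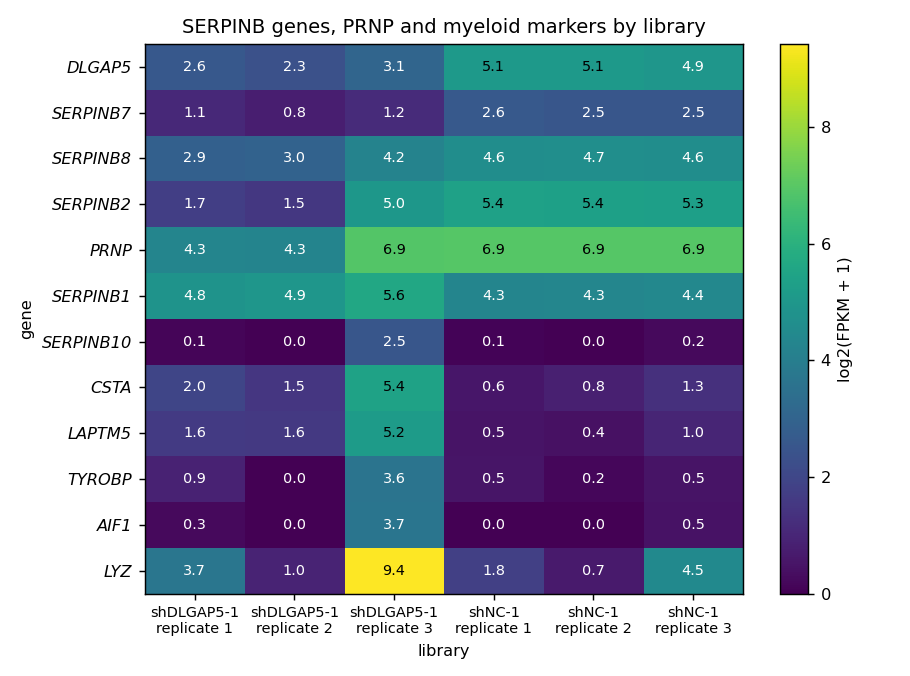
log2(FPKM + 1) of DLGAP5, SERPINB genes, PRNP, CSTA and 4 myeloid markers (rows) in the 6 libraries (columns), with the value in each cell. SERPINB2, SERPINB8 and PRNP of shDLGAP5-1 replicate 3 resemble shNC-1, and SERPINB10, CSTA and the myeloid markers are highest in that library.

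SERPINE2, protease nexin 1, which inhibits thrombin and urokinase, stood at 9.48, 12.7 and 18.2 FPKM in shDLGAP5-1 libraries and at 11.4, 12.1 and 8.62 FPKM in shNC-1 libraries. The groups overlapped, and shDLGAP5-1 replicate 3 was the highest. The log2 fold change was 0.27 (95% interval −0.28 to 0.82, limma adjusted p = 0.429) and 0.05 without shDLGAP5-1 replicate 3. SERPINE2 (ENSG00000135919) lies on chromosome 2 from 223975045 to 224039318, minus strand.

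In the order of mean levels PLAU, F3 and TFPI2 came first in both groups and THBD last. In shDLGAP5-1 cells the ranges of PLAUR and TFPI overlapped, as did those of SERPINE2 and SERPINB2 and those of SERPINB2 and THBD. PLAUR and TFPI changed order between these libraries, and so did SERPINE2 and SERPINB2. SERPINB2 lay above THBD within each library (2.35, 1.87 and 30.5 against 1.06, 1.16 and 1.97 FPKM in replicates 1 to 3). In shNC-1 cells the order was PLAU, F3, TFPI2, PLAUR, PLAT, SERPINB2, TFPI, SERPINE2 and THBD, and no neighbours overlapped. Exact two-sided permutation tests of FPKM over the 6 libraries gave p = 0.1, the smallest that 3 against 3 allow, for PLAUR, SERPINB2, F3, TFPI, TFPI2 and THBD, 0.2 for PLAT, 0.3 for PLAU and 0.4 for SERPINE2.

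The genes whose pattern over the 6 libraries was nearest to PLAU, by root-mean-square difference of log2(FPKM + 1) from their own shNC-1 mean among 8635 genes, were ALG3 (0.0384), SARS (0.0461) and EIF2B5 (0.0479). Nearest to SERPINB2 were MIR22 (0.537), PRNP (0.639) and DLGAP5 itself (0.920), all at larger distances. MIR22 is a microRNA gene whose reads cannot be told apart from those of its host. PRNP, which encodes the prion protein, stood at 18.7, 18.2 and 118 FPKM in shDLGAP5-1 replicates 1 to 3 against 122, 120 and 120 FPKM in shNC-1 replicates 1 to 3. Its shDLGAP5-1 replicate 3 was close to shNC-1, as for SERPINB2.

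Other serpins moved in both directions. Of 33 serpins listed, 10 were at 0 in all libraries. The test took in 10, of which 3 rose and 3 fell, where 15.3% of all genes tested were called higher and 9.52% lower. The median log2 fold change was 0.05 against 0.03 for all genes tested. SERPINA1, alpha-1 antitrypsin, an inhibitor of neutrophil elastase, was at 88.3, 79.9 and 53.6 FPKM in shDLGAP5-1 libraries and at 17.0, 17.9 and 20.4 FPKM in shNC-1 libraries, a rise of 1.92 on the log2 scale (adjusted p = 0.00126). SERPINA6, the corticosteroid carrier of plasma, rose at a low level (1.74 ± 0.193 FPKM in shDLGAP5-1, 0.580 ± 0.0489 FPKM in shNC-1; SD, n = 3 each), by 0.79 on the log2 scale and by 1.44 with a pseudocount of 0.1. SERPINA6 reached 1 FPKM only in shDLGAP5-1 libraries (1.52 to 1.87 FPKM, against 0.526 to 0.622 FPKM in shNC-1), so its entry into the test depended on its rise. SERPINB1, an inhibitor of neutrophil proteases, rose by 0.79 (adjusted p = 0.0326), was highest in shDLGAP5-1 replicate 3 (27.7, 29.7 and 49.0 FPKM in shDLGAP5-1, 18.7, 19.2 and 20.2 FPKM in shNC-1), and rose by 0.54 without that library (adjusted p = 0.0180). SERPINB1 no longer passed without shDLGAP5-1 replicate 2 (adjusted p = 0.0536), without any 1 shNC-1 library (0.0758 to 0.0955), with equal column totals (0.0774) or with no filter (0.101). Without shNC-1 replicate 1 or 2, 3 of the 10 were called.

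Receptors and partners around plasminogen and the urokinase receptor also moved both ways. Of 27 genes 15 were tested, 4 rose and 4 fell (median log2 fold change −0.13). Over all genes tested 15.3% were called higher and 9.52% lower, with a median of 0.03. CDCP1, a membrane protein cut by plasmin, had a log2 fold change of −0.72 and IGF2R, a receptor that binds plasminogen and the urokinase receptor, −0.96. ITGB3, the beta chain of the vitronectin receptor, rose by 0.97 and F12, the contact factor that can activate plasminogen, by 0.57 (0.86 with a pseudocount of 0.1). The plasminogen-binding enolase ENO1 fell, with 880 ± 94.2 FPKM in shDLGAP5-1 against 1375 ± 150 FPKM in shNC-1 (SD, n = 3 each; limma adjusted p = 0.0200), and no longer passed without shNC-1 replicate 2 (adjusted p = 0.0793) or 3 (0.0620). The calls were 2 higher and 5 lower with equal column totals, 3 and 5 under median-ratio scaling, and 2 and 5 after quantile normalization. CDCP1 and IGF2R no longer passed without shNC-1 replicate 1 (adjusted p = 0.0573 and 0.0548) or 2 (0.0606 and 0.0566), ITGB3 without shNC-1 replicate 2 (0.0526) or 3 (0.0531), and F12 without shDLGAP5-1 replicate 2 (0.0513), shNC-1 replicate 1 (0.0625) or 3 (0.0566). In all, 5 were called without shDLGAP5-1 replicate 2, 2 without shNC-1 replicate 1 or 3, and 1 without shNC-1 replicate 2.

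Coagulation genes and the other protease inhibitors had calls in 1 direction. Of 24 coagulation genes 9 were tested, of which 5 rose and 0 fell; their median difference was 0.55 (log2), against 15.3% higher, 9.52% lower and a median of 0.03 over all genes tested. GAS6, a vitamin K-dependent ligand of TAM receptors, was at 165, 170 and 143 FPKM in shDLGAP5-1 libraries and at 70.1, 71.4 and 80.1 FPKM in shNC-1 libraries (log2 fold change 1.10, limma adjusted p = 0.00137). The thrombin receptor F2R rose by 0.85, the protease-activated receptor F2RL1 by 0.92 and protein S, PROS1, by 0.71. With a pseudocount of 0.1 the value of F2RL1, a low gene, was 1.63. F2RL1 reached 1 FPKM only in shDLGAP5-1 libraries (1.92 to 2.17 FPKM, against 0.418 to 0.716 FPKM in shNC-1). Its entry into the test, and so into the count, depended on its rise. PROS1 no longer passed without shDLGAP5-1 replicate 2 (adjusted p = 0.0549) or shNC-1 replicate 2 (0.0672) or 3 (0.0557). It was also lost with no filter (limma adjusted p = 0.0546) and with a replicate block (0.0593). The count was 3 without shNC-1 replicate 2 or 3. Of 17 other inhibitors 10 were tested, 5 rose and 0 fell (median 0.81). WFDC2, a WAP-domain protein, averaged 5.11 ± 1.45 FPKM in shDLGAP5-1 and 0.321 ± 0.221 FPKM in shNC-1 (SD, n = 3 each), and rose by 2.19, a value that was 3.76 with a pseudocount of 0.1. WFDC2 reached 1 FPKM only in shDLGAP5-1 libraries (3.45 to 6.16 FPKM, against 0.0848 to 0.522 FPKM in shNC-1). Its entry into the test likewise depended on its rise. SPINT1, a Kunitz inhibitor of matriptase, rose by 0.77, the secreted inhibitor cystatin C, CST3, by 0.85 and the leukocyte protease inhibitor SLPI by 1.27. CSTA, cystatin A, did not pass (adjusted p = 0.152) and was at 2.91, 1.84 and 41.8 FPKM in shDLGAP5-1 libraries and at 0.491 to 1.49 FPKM in shNC-1 libraries, highest in the library with the myeloid markers.

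Factors known from various cell types to act on the promoters or the messenger RNA of the 9 genes split evenly. All 24 were tested, 4 rose and 4 fell; the median difference was −0.10 (log2). Over all genes tested 24.8% were called, 15.3% higher and 9.52% lower, with a median of 0.03. The share of the list that rose was near that of all genes, and the share that fell was above that of all genes. The difference in shares was not tested. The AP-1 subunits JUND and JUNB rose by 1.15 and by 0.94, while JUN fell by 0.63 (39.7 ± 2.16 FPKM in shDLGAP5-1, 61.8 ± 1.13 FPKM in shNC-1; SD, n = 3 each; limma adjusted p = 0.00504), a gene named after its values were seen. FOSL1, the most abundant FOS family gene of the list, stood at 345 ± 21.2 FPKM in shDLGAP5-1 and 308 ± 43.4 FPKM in shNC-1 (adjusted p = 0.392). ETS2, an ETS factor, had a log2 fold change of −0.82 and KLF4, a Krüppel-like factor, 0.81. The count of called genes was 5 without shNC-1 replicate 1, and with median-ratio scaling 4 were higher and 6 lower.

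**Figure D5:**
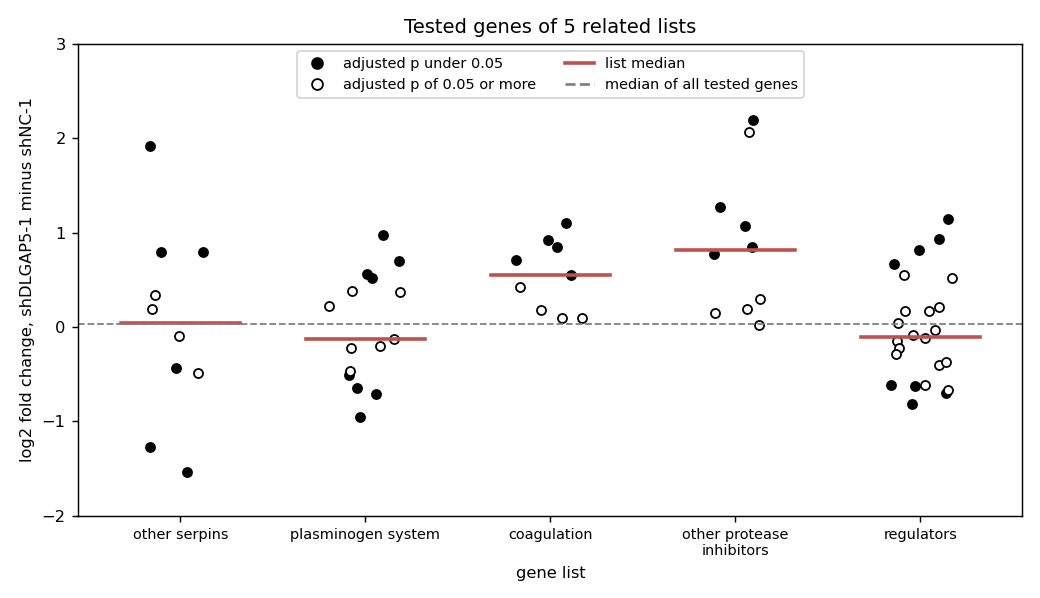
Log2 fold change, shDLGAP5-1 minus shNC-1, of the tested genes of 5 lists; filled points passed the adjusted p of 0.05, red bars are list medians and the dashed line is the median of all genes tested, 0.03. Calls of the coagulation and other inhibitor lists all lie above 0, while those of the other 3 lists lie on both sides.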

How the data were processed

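The 9 genes and the gene lists were chosen with earlier results of these data known. The authors deposited 1 table of 58825 genes whose header names no unit; its values behave as FPKM (not whole, column totals of 413001 to 487559, low single-exon genes at steps inversely proportional to length). Which aligner, counter, build and strand setting made them is not given in the sources used here. The FPKM were scaled to transcript length and library total by the authors before they were deposited, as the values show. The 3 columns named NC and a number match the shNC-1 titles, and the other 3 were given to shDLGAP5-1 as the only other group. Coordinates are those of the table; 99.5% of its identifiers are in GENCODE release 29 (GRCh38), 87.1% of them with equal coordinates.

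Genes reaching 1 FPKM in 3 or more libraries entered a test by limma (version 3.58.1, R 4.3.3; trended variance, log2(FPKM + 1), group as the only term), a fit checked on simulated data. Fold changes understate low genes. Depth is an estimate from the step of low processed pseudogenes; it gives no counts, so no count test was run. Within groups log2 levels correlated at 0.959 to 0.985, and no columns were identical. FPKM divide by library total, so scaling was varied. Permutation tests used scipy 1.17.1. Alternatives were a pseudocount of 0.1, no filter or one of 5 FPKM, same-total, median-ratio and quantile scaling, a robust variance prior, a replicate block and leaving out each library. Named were the 9 genes, DLGAP5, genes overlapping the 9, the 3 nearest patterns to PLAU and to the gene with the largest difference, and from each list up to 4 genes with the smallest p; further genes (PLG, F7, ENO1, JUN, FOSL1, SERPINB1, SERPINB5, SERPINB8, SERPINB10, CSTA) were chosen after their values were seen. A single item that this rule names is not reported here. Promoters came from a RefSeq table; exons annotated in GENCODE were left out of the printed stretches, save 30 bases round a motif.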

Additional observations from a re-analysis of the deposited data

How the results depend on the processing

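Every log2 fold change of the 9 genes kept its sign under all alternatives tried. Relative to the median of all genes, which median-ratio scaling moved by −0.11, PLAUR lay between −1.01 and −0.89, F3 between −0.65 and −0.52 and TFPI between 0.66 and 0.76 over the scalings. THBD was lost with no filter (log2 fold change −0.75, adjusted p = 0.0777) and was not tested with a filter of 5 FPKM; TFPI2 passed with same-total scaling (−0.58) and median-ratio scaling (−0.59), and SERPINB2 with median-ratio scaling (−2.72); the cause was not tested. Over fits without 1 library the log2 fold change ranged from −1.02 to −0.90 for PLAUR, −0.63 to −0.57 for F3, 0.66 to 0.74 for TFPI, −0.62 to −0.34 for TFPI2, −0.91 to −0.65 for THBD, −3.72 to −1.99 for SERPINB2, −0.20 to −0.06 for PLAU, 0.23 to 0.41 for PLAT and 0.05 to 0.48 for SERPINE2, and 3 to 5 of the 9 genes were called.

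Genes called numbered 3155 (61.6% higher). They numbered 2071 with no filter and 1335 to 3141 without 1 library, with 2056 without shDLGAP5-1 replicate 2 and 1511, 1335 and 1937 without shNC-1 replicates 1, 2 and 3. Of calls, 52.0% were higher with a filter of 5 FPKM, 47.8% with same-total scaling, 50.8% after quantile normalization and 41.8% under median-ratio scaling. Without 1 library, 3 to 5 serpins, 1 to 9 plasminogen genes, 3 to 5 coagulation genes, 4 to 5 other inhibitors and 5 to 8 regulators were called. With no filter 1 plasminogen gene and 3 coagulation genes were called; with a filter of 5 FPKM, which tests fewer genes, 5 plasminogen, 2 coagulation and 3 other inhibitor genes. TGACTCA or TGAGTCA was found in 2 of the genes.

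Deviations of same-numbered libraries from their group means correlated at −0.16, 0.02 and −0.16, and those of differently numbered libraries at −0.07 to 0.19. With 3 libraries per group such values cannot decide whether equal numbers mark a shared culture or preparation, and the labels do not say. With a replicate block 1464 genes were called, and THBD was lost (−0.75, adjusted p = 0.0584); 2 plasminogen, 3 coagulation and 5 regulator genes were called.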
